A study of Homo sapiens with 4 samples.

Results

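The regions described are 7087 peaks of USF1 immunoprecipitation that were called in the first of 2 peak lists, overlapped no peak of the second, and lay away from the ends of protein-coding genes. They were chosen from the 14300 peaks of list 1 (IP 1 against input 1). Of these, 8964 (62.7%) overlapped none of the 27325 peaks of list 2 (IP 2 against input 2) by at least 1 bp. From those 8964, 6 peaks outside chromosomes 1 to 22 and X were left out, as were 1262 centred on chromosome 5 between 10 and 50 Mb, where list 1 is dense. A further 609 were left out because their centre lay within 1 kb of an end of a protein-coding gene in RefSeq's GRCh38.p14 annotation. The remaining 7087 are called list 1 only distal peaks below. They were chosen by presence in one list, absence from the other and position, so those features are not findings.

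Both lists come from ChIP-seq in Huh7, an established line from a human hepatocellular carcinoma, made to overexpress USF1, as stated in the series' design text. The IP libraries (IP 1 and IP 2) hold crosslinked DNA fragments recovered with an anti-FLAG antibody, and the input libraries (input 1 and input 2) are labelled as input from the same line. Per the labels' protocols, chromatin was sonicated to 200 to 1000 bp and library products of 200 to 500 bp were kept. The expression construct, the number of clones and whether the replicates came from separate cultures are not given in the sources used here, and libraries of an IgG precipitation or of cells without the tagged protein were not analysed here. Per the file headers, duplicate removal left 47165647 tags in IP 1 and 46345938 in input 1, and 43942638 in IP 2 and 43562726 in input 2. Each peak has a single value in its list, so no value of a peak has a replicate error.

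USF1, upstream transcription factor 1, belongs to the basic helix-loop-helix leucine zipper family. It binds DNA as a dimer, with itself or with USF2, at the palindromic E-box CACGTG, and is best known at promoters close to transcription starts, in liver at genes of lipid and glucose metabolism. Sites far from annotated genes are commonly reported in ChIP-seq of such factors.

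Promoter sequences were available for annotated transcription starts and cover 250 bases before to 50 bases after each start. They include alternative starts and starts of non-coding genes that lie over 1 kb from protein-coding gene ends, so a small part of the distal peaks fell on one. The first 4 windows below were covered by list 1 only distal peaks and are among the 7 such windows that hold the E-box, the next was covered by the strongest such peak over a window without it, and the last 2 were covered by the strongest shared distal peaks with it. Letters run 5' to 3' on the gene's strand, from RefSeq (GRCh38.p14), and capitals mark every CACGTG.
LOC107984778 (chr15:91412568-91412867, minus strand): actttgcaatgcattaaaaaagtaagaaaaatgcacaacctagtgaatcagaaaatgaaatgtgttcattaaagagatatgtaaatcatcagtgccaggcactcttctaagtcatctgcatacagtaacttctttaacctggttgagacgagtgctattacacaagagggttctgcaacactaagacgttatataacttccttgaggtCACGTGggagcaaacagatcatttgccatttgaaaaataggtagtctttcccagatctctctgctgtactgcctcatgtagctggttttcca
LOC124903167 (chr13:44436954-44437253, plus strand): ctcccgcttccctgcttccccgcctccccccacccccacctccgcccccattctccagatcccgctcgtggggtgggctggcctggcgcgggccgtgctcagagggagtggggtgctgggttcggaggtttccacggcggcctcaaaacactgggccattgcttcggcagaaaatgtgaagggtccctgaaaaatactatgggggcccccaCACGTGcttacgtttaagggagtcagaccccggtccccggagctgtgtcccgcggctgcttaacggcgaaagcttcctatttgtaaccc
DLGAP1-AS2 (chr18:3603487-3603786, plus strand): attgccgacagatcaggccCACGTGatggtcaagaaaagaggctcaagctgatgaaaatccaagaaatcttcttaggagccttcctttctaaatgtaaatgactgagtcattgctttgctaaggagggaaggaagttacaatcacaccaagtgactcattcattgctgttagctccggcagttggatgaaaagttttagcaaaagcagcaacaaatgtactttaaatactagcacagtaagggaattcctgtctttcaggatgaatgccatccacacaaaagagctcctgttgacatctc
SERPINE2 (chr2:224031429-224031728, minus strand): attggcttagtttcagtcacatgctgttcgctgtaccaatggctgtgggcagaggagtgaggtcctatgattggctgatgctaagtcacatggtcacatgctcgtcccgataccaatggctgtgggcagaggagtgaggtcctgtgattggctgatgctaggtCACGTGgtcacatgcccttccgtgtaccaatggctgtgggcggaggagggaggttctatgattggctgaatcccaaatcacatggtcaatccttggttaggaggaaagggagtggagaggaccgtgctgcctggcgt
FHL1 (chrX:136169046-136169345, plus strand): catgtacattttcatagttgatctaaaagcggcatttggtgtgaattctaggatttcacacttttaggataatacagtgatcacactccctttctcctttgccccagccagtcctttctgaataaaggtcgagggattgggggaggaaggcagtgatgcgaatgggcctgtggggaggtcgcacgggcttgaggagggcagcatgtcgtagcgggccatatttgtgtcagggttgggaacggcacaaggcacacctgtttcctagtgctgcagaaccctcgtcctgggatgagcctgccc
FNDC3A (chr13:49110067-49110366, plus strand): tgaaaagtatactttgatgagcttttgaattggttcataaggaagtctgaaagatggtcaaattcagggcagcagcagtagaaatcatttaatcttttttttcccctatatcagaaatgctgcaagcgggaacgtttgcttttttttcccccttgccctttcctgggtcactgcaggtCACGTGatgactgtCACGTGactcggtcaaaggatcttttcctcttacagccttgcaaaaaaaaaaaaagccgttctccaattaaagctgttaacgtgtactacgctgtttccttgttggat
SLC36A1 (chr5:151447353-151447652, plus strand): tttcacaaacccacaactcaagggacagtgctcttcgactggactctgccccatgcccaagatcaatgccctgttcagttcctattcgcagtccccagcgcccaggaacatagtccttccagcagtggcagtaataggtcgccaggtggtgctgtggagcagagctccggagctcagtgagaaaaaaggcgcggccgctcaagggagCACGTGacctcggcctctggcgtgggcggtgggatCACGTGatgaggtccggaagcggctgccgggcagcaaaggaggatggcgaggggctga

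The E-box at LOC107984778, a non-coding gene between protein-coding genes, lay 8 bp from the summit of a 9.47-fold peak with 39 IP tags. At LOC124903167, a non-coding gene inside TSC22D1 (a leucine zipper transcription regulator), it lay 51 bp from the summit of a 7.28-fold peak with 45 tags. The E-box of DLGAP1-AS2, the antisense RNA gene within DLGAP1, was 8 bp from the summit of a 6.41-fold peak with 129 tags. At an internal start of SERPINE2, which encodes a secreted serine protease inhibitor, it was 41 bp from the summit of a 5.83-fold peak with 33 tags and an FDR of 100%. In the 3 windows not shown, the E-box lay further out at LINC01348 (1999 bp from the summit, 3.74-fold) and LOC105379117 (229 bp, 7.65-fold), and 32 bp out at LOC105376859 (5.25-fold). FHL1, a LIM domain protein gene, had the 9.72-fold peak of 45 tags over an internal start without the letters. In the shared windows the E-box occurred 2 times each, with one of them 11 bp from the summit at FNDC3A (29.49-fold, 111 tags) and one 1 bp from it at SLC36A1, a lysosomal amino acid transporter gene (25.49-fold, 122 tags).

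Of 34961 promoter windows on these chromosomes, list 1 only distal peaks covered at least part of 142, by way of 114 peaks. The windows belonged to long non-coding RNA genes in 62 cases and to alternative starts of protein-coding genes in 80. CACGTG, which reads the same on both strands, was found in 7 of the 142 (4.93%, 95% Wilson interval 2.41 to 9.83%). Shared distal peaks, the 3325 list 1 peaks placed in the same way that did overlap list 2, held it in 92 of 412 windows (22.3%, 18.6 to 26.6%). List 2 only distal peaks held it in 86 of 872 (9.86%, 8.06 to 12.02%). Over all windows whose centre was away from protein-coding gene ends, 799 of 15374 held it (5.20%, 4.86 to 5.56%), and over windows of any place 7.27%. With all window types pooled, the share under list 1 only distal peaks was therefore near that of windows chosen by position alone. Its interval did not reach that of shared distal peaks. In long non-coding RNA windows alone it was 6 of 62 (9.68%, 4.51 to 19.5%), against 31 of 144 under shared distal peaks (21.5%, 15.6 to 28.9%). Of all long non-coding RNA windows 5.41% held it. In this window type the intervals of the list 1 only and shared classes overlap. The 412 windows under shared distal peaks lay under 287 peaks. Windows under the same peak can overlap and hold the same E-box, while these intervals treat each window as independent.

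With the summit itself required inside the window, the E-box stood in 5 of 68 windows under list 1 only distal peaks (7.35%, 3.18 to 16.1%), against 83 of 215 under shared distal peaks (38.6%, 32.4 to 45.3%). The looser pattern CANNTG, of which CACGTG is one form, was in 69.7% of windows under list 1 only distal peaks, against 65.5% under shared distal peaks and 75.6% of windows away from gene ends. Within list 1 only distal peaks the E-box share moved with the caller's score, which is minus 10 times log10 of its p. Below a score of 100 it was 2 of 115 windows (1.74%, 0.478 to 6.12%), and from 100 up it was 5 of 27 (18.5%, 8.18 to 36.7%). In shared distal peaks it was 33 of 234 (14.1%, 10.2 to 19.1%) below 100 and 34 of 133 (25.6%, 18.9 to 33.6%) from 100 to under 200. In list 2 only distal peaks it was 53 of 563 (9.41%, 7.27 to 12.1%) below 100 and 28 of 259 (10.8%, 7.59 to 15.2%) from 100 to under 200, so it moved little. At scores from 100 to under 200 the intervals of the list 1 only and shared classes overlap, and below 100 they do not. This split was chosen after the data were seen. The windows are a small and selected part of the distal peaks, and sequence under the other peaks was not analysed here.

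**Figure D1:**
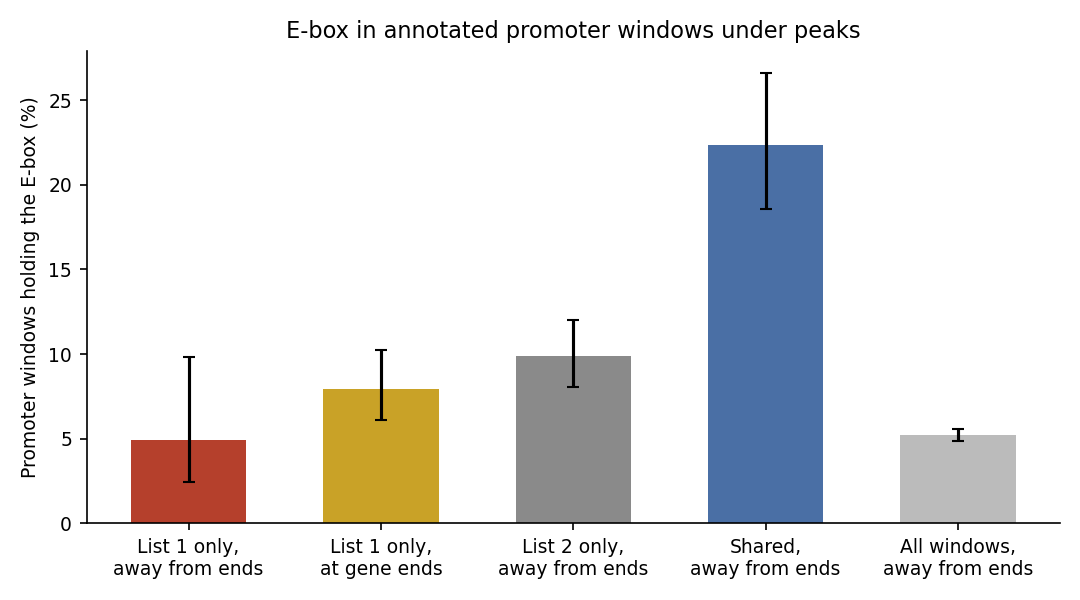
The bars give the percentage of annotated promoter windows holding CACGTG under each class of peak, with 95% Wilson intervals that cover counting error only. Windows under list 1 only distal peaks stand at 4.93%, close to the 5.20% of all windows away from gene ends, and those under shared distal peaks at 22.3%.

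Because list 1 chose these peaks, their strength is given as description. Fold over input, the authors' ratio of summit tags to expected background, had a median of 5.83 in list 1 only distal peaks (quartiles 5.06 to 6.92, range 2.48 to 20.94), against 6.66 in shared distal peaks. The median IP tag count per peak was 35 (range 19 to 553), against 49. The median width was 667 bp (range 235 to 6804 bp), against 770 bp. By the caller's FDR, which comes from swapping IP and input, 5589 list 1 only distal peaks stood at 100% (78.9%, 77.9 to 79.8%), against 1719 shared distal peaks (51.7%) and 64.3% of all list 1 peaks. An FDR of 5% or less was reached by 5 list 1 only distal peaks (0.0706%), against 70 shared distal peaks (2.11%) and 1.92% of all list 1 peaks. In list 2, called separately, 0 of 18328 list 2 only distal peaks stood at 100%, and 3455 (18.9%) at 5% or less. Their median score was 64.4 and their median fold 5.43, so the FDR differed between the lists at similar scores. A large part of the list 1 only distal peaks lay close to the calling threshold, with a median score of 62.5 where the cutoff stands at 50. A score under 60 was held by 3030 (42.8%), against 38.8% of list 2 only and 21.3% of shared distal peaks. A score of at least 100 was held by 685 (9.67%), against 13.0% and 32.7%. Scores near the cutoff were thus common in the list 1 only and list 2 only classes alike. The 609 list 1 only peaks at gene ends had a median of 5.16-fold and 52 tags, more tags but a lower fold than the distal ones had.

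Absence from list 2 did not mean that list 2 was empty nearby. A list 2 peak lay within 10 kb of 1597 list 1 only distal peaks (22.5%, 21.6 to 23.5%) and within 1 kb of 217 (3.06%), and the median distance to the nearest one was 30131 bp. The share within 10 kb was 22.003% (18.9 to 25.5%) for list 1 only peaks at gene ends and 23.1% (20.9 to 25.5%) for those of the chromosome 5 stretch left out. How much of the distal sequence lies within 10 kb of a list 2 peak was not computed. The shares therefore do not show whether list 2 peaks were nearer than position alone would give. At the limit of the overlap rule, the 3 nearest misses lay 19, 27 and 29 bp from a list 2 peak, in ATXN1 (5.6-fold), in IL1RAPL1 (7.64-fold) and 46446 bp from GATB (5.49-fold). The 3 narrowest overlaps, which counted as shared, were 7, 12 and 21 bp wide and had 5.35-fold, 7.28-fold (in PTPRD) and 6.77-fold. At the limit of the gene-end rule, the 3 distal peaks nearest to it lay 1008, 1020 and 1022 bp from the ends of DCAF8L2, ZEB1 and MPPED2, with 6.55-fold, 5.46-fold and 3.98-fold. The 3 just within it lay 985, 980 and 979 bp from the ends of SNX30, OR2M2 and MPDZ, with 8.5-fold, 7.16-fold and 7.28-fold. Folds on both sides of the overlap limit had overlapping ranges, while the 3 peaks just within the gene-end limit had higher folds than the 3 just beyond it. Over the whole classes the order was the other way, with medians of 5.16-fold at gene ends and 5.83-fold in list 1 only distal peaks.

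The strongest list 1 only distal peaks lay mostly in intergenic sequence. The highest fold was 20.94, with 79 tags and an FDR of 2.94%, at chr2:102948199-102948921, 104722 bp from the end of TMEM182. Next was a narrow peak of 388 bp at chr2:49203586-49203973, 49264 bp from FSHR, the follicle stimulating hormone receptor gene, with 17.5-fold, 52 tags and an FDR of 4.44%. The third, at chr17:53442182-53442834, was 380419 bp from KIF2B, a kinesin gene, with 17.11-fold and 65 tags. At 16.02-fold came peaks near TMEM232 on chromosome 5 (80 tags), near FREM1 on chromosome 9 (63 tags) and 703203 bp from TMTC2 on chromosome 12 (60 tags). Of the 10 highest, 1 lay inside a protein-coding gene: the 15.7-fold peak in CNTN5 at chr11:99790382-99792017, which had 135 tags, a width of 1636 bp and the lowest FDR of the class (1.91%). The last 3 of the 10, nearest to FANCL, RUNX1T1 and FBXO11, had 15.3-fold to 15.66-fold. Altogether 161 list 1 only distal peaks reached 10-fold and 11 reached 15-fold.

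Tag count ranked other peaks first. The widest, at chr5:8903226-8910029 between protein-coding genes, held 553 tags over 6804 bp at 3.52-fold and an FDR of 100%. A second, at chr11:26156848-26163027, held 386 tags over 6180 bp at 4.21-fold, 28871 bp from ANO3. Of the other 3 with the most tags, 2 also lay on chromosome 5 near or inside SEMA5A (308 tags at 7.59-fold and 276 tags at 3.59-fold), in sequence next to the stretch that was left out. None of the 5 peaks with the most tags was among the 10 of highest fold.

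Relative to protein-coding genes, 2958 list 1 only distal peaks lay inside a gene (41.7%, 40.6 to 42.9%) and 4129 between genes. Gene bodies make up 41.3% of the bases over 1 kb from a gene end, counted along each chromosome with assembly gaps included. The share of peaks inside genes was near that value. Gaps hold neither genes nor peaks, so the value without them would be higher, and it was not computed. Shared distal peaks were inside genes in 40.6% of cases (38.9 to 42.3%) and list 2 only distal peaks in 43.7% (43.0 to 44.4%). Peaks inside genes and between genes had the same median fold (5.83), medians of 36 and 34 tags, and an FDR of 100% in 79.0% and 78.8%. Along the genes, cut into 5 equal parts, the 2461 peaks that lay in 1 gene of known strand fell at 18.9, 22.1, 20.3, 21.5 and 17.2%, read 5' to 3'. The outer parts, which held the least, lack the 1 kb next to the gene end that the rule leaves out.

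Distance from gene ends separated the classes more than gene bodies did. List 1 only distal peaks had a median distance of 85916 bp to the nearest protein-coding gene end, against 52395 bp for shared and 48292.5 bp for list 2 only distal peaks. Over 100 kb from any end were 3287 of them (46.4%, 45.2 to 47.5%), against 36.2% of shared (34.6 to 37.9%) and 33.8% of list 2 only distal peaks (33.2 to 34.5%). Over 500 kb away were 894 (12.6%), against 7.76% and 7.02%. Within 10 kb were 881 (12.4%), against 18.9% and 19.3%. The interval of the list 1 only class beyond 100 kb overlapped neither of the others. The share of distal bases beyond 100 kb was not computed, so these values compare the classes with each other and not with the sequence.

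Non-coding genes took up little of this distance. Within 1 kb of the end of a non-coding gene lay 292 list 1 only distal peaks (4.12%, 3.68 to 4.61%), where such ends take up 3.88% of the distal bases. The share was 9.38% (8.44 to 10.4%) in shared distal peaks and 5.95% (5.61 to 6.30%) in list 2 only distal peaks. Of the 292, 188 were at long non-coding RNA genes and 74 at pseudogenes, with 13 at miRNA genes and 5 at tRNA genes. Of the 4129 intergenic peaks, 2988 (72.4%) lay in no annotated gene of any type and 1093 (26.5%) inside a long non-coding RNA gene. Among the non-coding genes holding most were LINC02699 on chromosome 11 (23 peaks), LINC02755 on chromosome 11 (12), DISC1FP1 on chromosome 11 (11) and LINC01122 on chromosome 2 (9).

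Of 1558 annotated miRNA hairpins, 5 were covered by a list 1 only distal peak, and their mature forms had 5 different seeds. The pair below lie inside protein-coding genes, HNF4A and CDH13, and have the seed (bases 2 to 8) in capitals, from RefSeq (GRCh38.p14).
hsa-miR-3646 (chr20:44408177-44408198, plus strand): aAAAUGAAaugagcccagccca
hsa-miR-8058 (chr16:82688988-82689009, plus strand): cUGGACUUugaucuugccauaa

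The first lies in HNF4A, a liver nuclear receptor gene, under a 3.85-fold peak at an FDR of 100%, and the second in CDH13, a cadherin gene. Both are hairpins inside longer genes, and the peaks do not show which transcript, if any, they relate to.

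By 5 Mb window, the peaks were spread unevenly. Of 611 windows, 41 held no list 1 only distal peak, of which 27 also held no list 2 only distal peak. A further 311 windows held 1 to 9, 222 held 10 to 29 and 37 held 30 or more, with a median of 7 and quartiles of 4 and 16. The 10 fullest windows held 714 list 1 only distal peaks (10.1%), against 470 list 2 only (2.56%) and 114 shared distal peaks (3.43%). The windows were ranked on the list 1 only class, which favours it in this comparison.

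The 2 fullest windows are both on chromosome 11 and stand apart from all others. The window from 95 to 100 Mb held 147 list 1 only distal peaks, against 54 list 2 only and 14 shared distal peaks. The window from 25 to 30 Mb held 137, against 40 and 13. The third fullest, from 5 to 10 Mb of chromosome 9, held 64, against 39 and 17. Set against the list 2 only class, the ratios were 2.72, 3.43 and 1.64. Of the 259 windows with at least 10 list 1 only distal peaks, 18 held more of them than of list 2 only distal peaks, and the median ratio was 0.455.

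**Figure D2:**
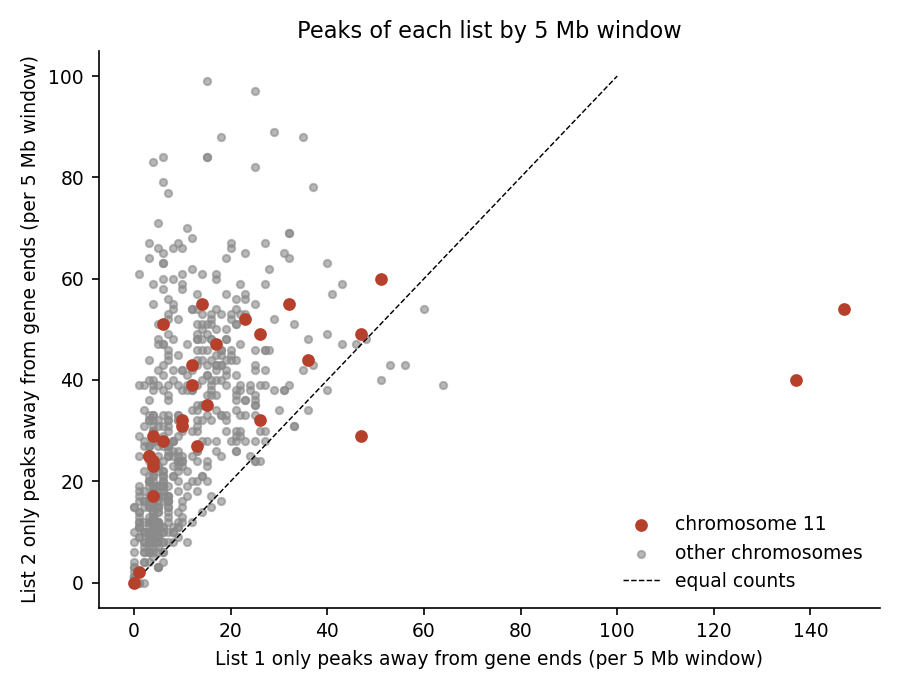
Each point is a 5 Mb window, with its count of list 1 only distal peaks across and of list 2 only distal peaks up, and the dashed line marks equal counts. The windows of chromosome 11 with 147 and 137 list 1 only distal peaks stand far to the right of the other windows, at 54 and 40 list 2 only distal peaks.

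At 1 Mb resolution the dense stretches had different outlines in the list 1 only class. Within 25 to 30 Mb of chromosome 11, the 5 bins held 27, 40, 18, 16 and 36 list 1 only distal peaks, and the neighbouring bins held 1 and 6. List 2 only distal peaks numbered 5 to 13 in the same 5 bins, and a median of 9 in the 30 flanking bins. Within 95 to 100 Mb the bins held 14, 26, 47, 24 and 36. The 5 bins before them, from 90 to 95 Mb, held 15, 10, 4, 14 and 8, with no step at 95 Mb, and the bins after them held 27, 15, 2 and 3. List 2 only distal peaks numbered 8 to 13 there, and a median of 6.5 in the 30 flanking bins. The list 1 only class thus had a step at both edges of the first stretch, and a gradual start and a taper around the second. List 2 only distal peaks numbered at most 17 in any 1 Mb bin of these windows and flanks.

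**Figure D3:**
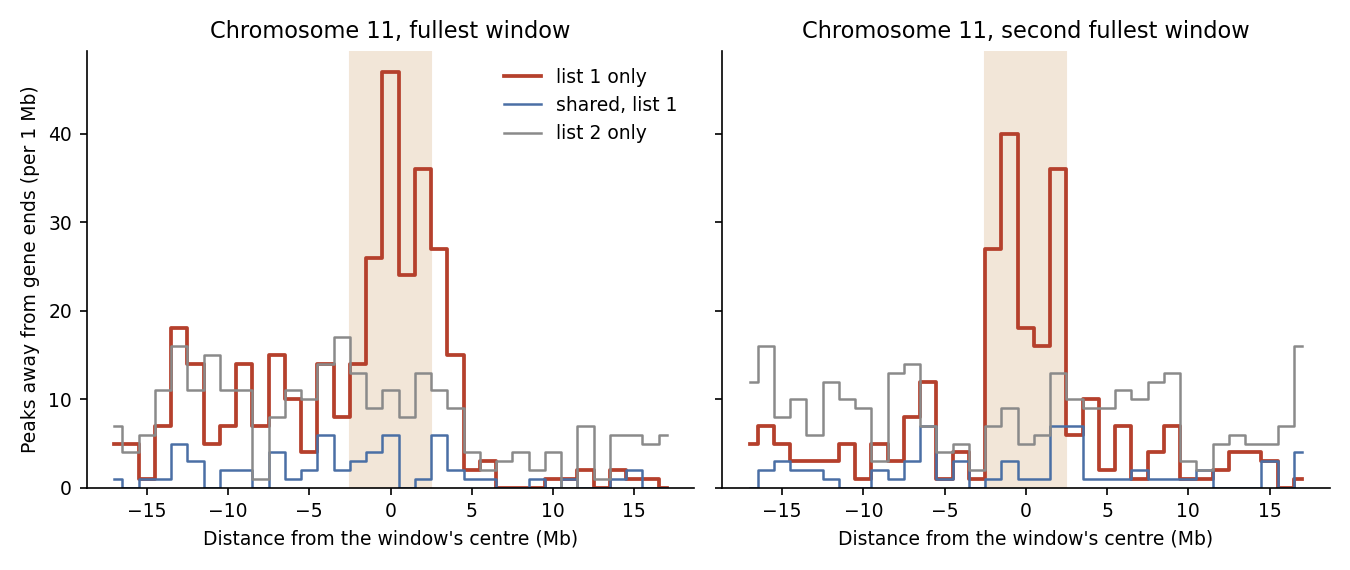
Lines give distal peaks per 1 Mb around the centres of the 2 fullest windows, which are shaded, for the list 1 only, shared and list 2 only classes. The list 1 only class reaches 47 and 40 peaks per Mb inside the shaded windows, while list 2 only distal peaks there number 5 to 13.

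Peaks in the 2 dense windows differed in shape from the other list 1 only distal peaks. Their 284 peaks had a median of 5.3-fold, against 5.83-fold in the 6803 elsewhere. They had a median of 43.5 tags over 782 bp, against 35 tags over 661 bp. A fold of at least 8 was reached by 4.93% (2.96 to 8.10%), against 10.9% (10.1 to 11.6%), and an FDR of 100% by 72.5% (67.1 to 77.4%), against 79.1% (78.1 to 80.1%). They lay inside genes in 31.0% (25.9 to 36.6%), against 42.2% (41.0 to 43.4%). Protein-coding gene bodies cover 33.2% of the window from 95 to 100 Mb and 28.5% of that from 25 to 30 Mb. The share inside genes was thus near that of the windows' own sequence. The stretch of chromosome 5 that the rule leaves out had values further in the same direction, with a median of 4.755-fold, 70 tags and 1135 bp over its 1262 list 1 only peaks. Lower fold with more tags was thus found in the pooled dense windows of chromosome 11 and on chromosome 5. The part of local background in the dense windows was not tested, since the files give no input tags per peak.

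Within the dense windows the peaks fell on a few long genes and the deserts between them. From 95 to 100 Mb, 43 of the 147 lay inside genes, 36 of them in CNTN5, which encodes a neural cell adhesion protein of the contactin family, and 104 lay between genes. From 25 to 30 Mb, 45 of the 137 lay inside genes and 92 between. ANO3, a member of the anoctamin family of membrane proteins, held 22, and BBOX1, an enzyme of carnitine synthesis, and METTL15, a mitochondrial rRNA methyltransferase, held 6 each. The highest fold there was 12.43, inside BBOX1 (52 tags). Of the 3 long non-coding genes of chromosome 11 named above, LINC02699 and LINC02755 also lie in that window.

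The 2 fullest windows were ranked by count, so closer spacing of peaks there follows from that choice. Neighbouring list 1 only distal peaks were a median of 15989 bp apart in the 2 fullest windows, against 171770 bp elsewhere. Peaks no more than 10 kb from the next formed 451 runs, which held 995 list 1 only distal peaks (14.04%), and 63 runs had 3 or more. The longest, of 7 peaks with 3.41-fold to 8.14-fold, spanned chr11:26553965-26589402 in ANO3. Runs of 6 lay at chr11:26063639-26095922 and chr11:97339546-97361376, both between genes. Outside chromosome 11, runs of 5 were found in PTPRD on chromosome 9 and on chromosome 19. The share in runs is not set beside that of another class or of peaks placed at the same density.

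The other full windows held 47 to 64 list 1 only distal peaks each. On chromosome 9 from 5 to 10 Mb, 48 of 64 lay in PTPRD, a receptor tyrosine phosphatase gene, with 9.47-fold at the highest. On chromosome 1, the window from 190 to 195 Mb held 60 (highest 12.38-fold, 149261 bp from RGS18). The window from 95 to 100 Mb held 56 (highest 10.92-fold, in SNX7), 8 of them in DPYD, which breaks down pyrimidines. The window from 185 to 190 Mb held 51 (highest 13.11-fold, in TRMT1L), 7 of them in HMCN1, an extracellular matrix protein gene. The window from 50 to 55 Mb of chromosome 2 held 53. On chromosome 3 from 20 to 25 Mb, 8 of 48 lay in ZNF385D (highest 12.02-fold) and 6 in THRB, a thyroid hormone receptor gene.

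Chromosome 11 had further full windows next to the densest. From 80 to 85 Mb it held 36 list 1 only distal peaks, 22 of them in DLG2, a synaptic scaffold gene. From 85 to 90 Mb it held 47 (highest 10.56-fold, in DLG2), and from 90 to 95 Mb 51 (highest 7.73-fold, in FAT3). From 100 to 105 Mb it held 47, level with the tenth window, with 12 in CNTN5 and 7 in ARHGAP42. On the short arm, the window from 5 to 10 Mb held 32. List 2 only distal peaks numbered 44, 49, 60, 29 and 55 in these 5 windows in the order given, so the list 1 only class was larger from 100 to 105 Mb and smaller in the other 4.

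Over whole chromosomes, chromosome 11 held 710 list 1 only distal peaks (10.0%, 9.34 to 10.7%) on 4.47% of the distal bases, against 5.59% of shared (4.86 to 6.43%) and 5.44% of list 2 only distal peaks (5.12 to 5.78%). Without its 2 fullest windows, its share was 6.26%. Its density was 5.44 per Mb, against 2.43 per Mb over all chromosomes. Chromosome 1 had 3.84 per Mb (928 peaks), chromosome 5 outside the stretch left out 3.69 per Mb (512 peaks) and chromosome 3 3.45 per Mb (671 peaks), while chromosome 21 had 0.676 per Mb (31 peaks) and chromosome 14 0.745 per Mb (78 peaks). The ratio of list 1 only to list 2 only distal peaks was 0.712 on chromosome 11 and 0.387 overall. It was lowest on the gene-rich chromosome 19 (0.155, with 72 list 1 only and 464 list 2 only distal peaks), followed by chromosome 20 (0.184).

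Some windows were poor in list 1 only distal peaks where list 2 only distal peaks were many. From 135 to 140 Mb of chromosome 9 there was 1 list 1 only distal peak, against 61 list 2 only. From 130 to 135 Mb of the same chromosome there were 3, against 67, and the same number, against 64, from 130 to 135 Mb of chromosome 12. The first 5 Mb of chromosome 7 held 4, against 83. On chromosome 3 from 125 to 130 Mb there were 4, against 59, and on chromosome 19 from 15 to 20 Mb 3, against 44. These 6 windows have the lowest ratios among those with at least 40 list 2 only distal peaks and were picked after their values were seen.

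Correlations were taken across the 584 windows that held a list 1 only or a list 2 only distal peak. Spearman's rho was 0.628 between counts of list 1 only and list 2 only distal peaks and 0.561 between list 1 only and shared. These are descriptions over windows that share chromosomes and assembly gaps, and a list 1 peak can fall in only one of its classes. With the number of protein-coding genes in the window, rho was -0.149 for list 1 only, 0.262 for list 2 only and 0.211 for shared distal peaks, and -0.425 for the ratio of list 1 only to list 2 only. In windows with 0 to 9 genes there were 10.2 list 1 only distal peaks per window, against 19.7 list 2 only. With 10 to 24 genes there were 15.7, against 29.6, and with 25 to 49 genes 11.6, against 34.4. With 50 or more genes there were 7.12, against 36.7. The ratios were 0.515, 0.529, 0.338 and 0.194 in the same order, so list 1 only distal peaks made up less of the distal peaks where genes were many. Set against shared distal peaks, which come from the same list, the ratio also went down, from 2.72 and 2.81 in the gene-poor windows to 1.97 and 1.06 in the gene-rich ones.

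**Figure D4:**
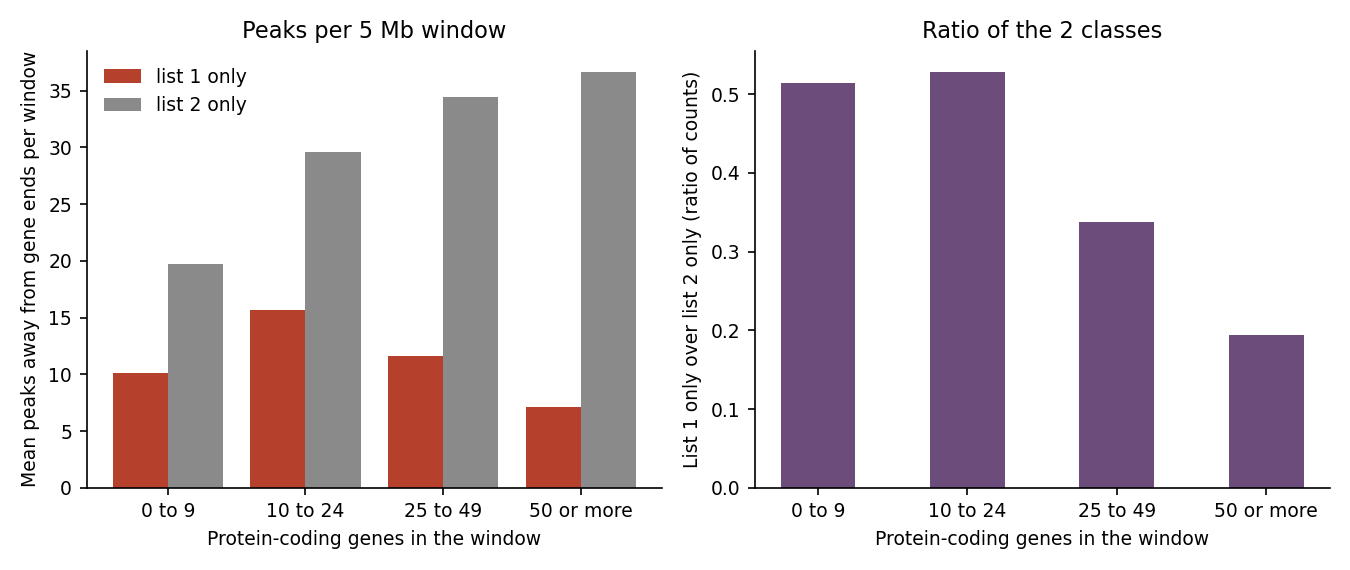
The left panel gives mean distal peaks per 5 Mb window, list 1 only beside list 2 only, by the number of protein-coding genes in the window, and the right panel the ratio of the 2 counts. List 1 only distal peaks go down to 7.12 per window with 50 or more genes, where list 2 only distal peaks reach 36.7 and the ratio is 0.194.

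Single genes followed length. List 1 only distal peaks lay in 1727 of 19970 protein-coding genes (8.65%), with 1 peak in 1219 genes and 10 or more in 14. The genes with a peak had a median length of 151.5 kb, against 24.2 kb for all genes, and 698 of the 1396 genes of at least 200 kb held one. The 10 genes with the most held 253 peaks between them. PTPRD led with 56, against 28 list 2 only distal peaks, or 24.4 against 12.2 per Mb of gene. Its list 1 only peaks had 3.63-fold to 9.47-fold, and 43 of the 56 had an FDR of 100%. CNTN5 had 48, against 14 (35.9 against 10.5 per Mb, 3.57-fold to 15.7-fold). DLG2 had 34, against 30, and DMD, the dystrophin gene, 23, against 18. ANO3 had the highest density of the genes of at least 200 kb with at least 3 peaks, with 22 peaks, against 3 (46.4 against 6.32 per Mb).

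DPP10, a potassium channel accessory protein gene, was the one gene of the 10 with fewer list 1 only than list 2 only distal peaks, 15 against 28. SOX5, a transcription factor gene, had 14 against 10, and GPC6, a heparan sulfate proteoglycan gene, 14 against 8. MECOM, a zinc finger transcription factor gene, had 13 against 2, with 4.5-fold to 8.73-fold. Among the densest genes of at least 200 kb were also TMTC1 (7 peaks, against 4), ARHGAP42 (7, against 5), DENND1B (6, against 1), SPAG17 (5, against 2), FNDC3A (5, against 2) and CDK6, a kinase of the cell cycle (5, against 0). Of the genes named here, all except DPP10 held more list 1 only than list 2 only distal peaks, although the list 2 only class was larger by 18328 to 7087. They were ranked on the list 1 only count, which favours that side.

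**Figure D5:**
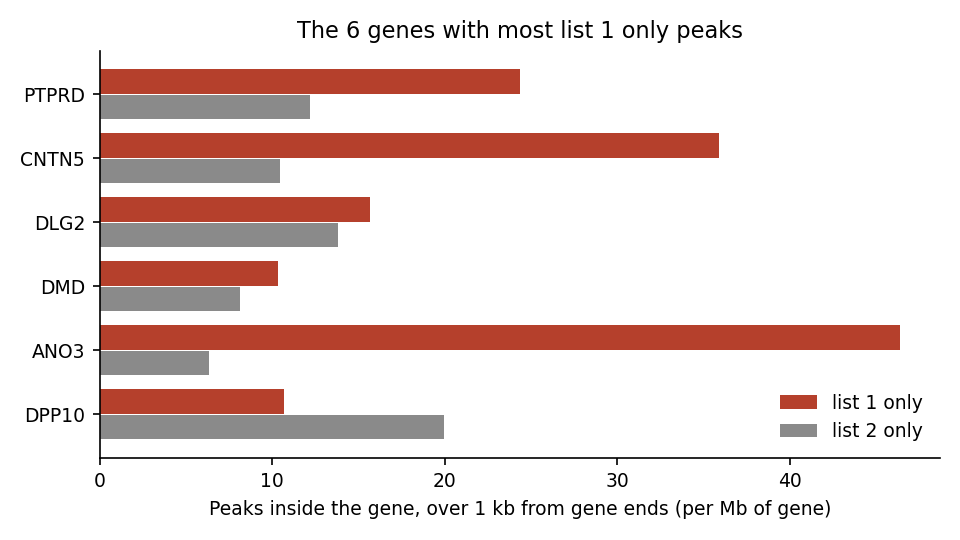
Bars give distal peaks per Mb of gene, list 1 only above list 2 only, for the 6 protein-coding genes that hold the most list 1 only distal peaks. ANO3 stands at 46.4 against 6.32 per Mb and CNTN5 at 35.9 against 10.5 per Mb, while DPP10 has fewer list 1 only than list 2 only distal peaks.

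The gene lists differed in length as well as in count. Of 30 large neural and adhesion genes, 26 held a list 1 only distal peak (86.7%, 70.3 to 94.7%), against 8.65% of all protein-coding genes. Among genes of at least 200 kb, 698 of 1396 held one. List 2 only distal peaks lay in 28 of the same 30 genes, and in 4264 of all 19970, so most of the 30 held a peak in each class. This list was chosen with earlier results of these data known. Per length, the list had 5.87 list 1 only distal peaks per Mb, against 2.9998 per Mb in genes of at least 200 kb and 2.32 per Mb over all genes, and 6.97 list 2 only distal peaks per Mb, against 6.34 over all genes. PTPRD, CNTN5 and DLG2 alone gave 138 of its 258 list 1 only peaks. Glutamate receptor genes, which encode the receptors of excitatory synapses, held one in 10 of 20, with 5 in GRM5 and 3 each in GRID1 and GRM7. Their density was 2.27 per Mb, close to that of all genes.

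Of 30 hepatocyte genes, 1 held a list 1 only distal peak (3.33%, 0.591 to 16.7%), the HNF4A peak described above. Of 20 lysosome genes, a group with known E-box promoters, 0 held one (up to 16.1%), against 2 shared and 5 list 2 only distal peaks in the list. These lists cover 0.849 and 0.685 Mb of gene, so at the density of all genes few peaks could fall in either. Of 390 olfactory receptor genes, 12 held one (3.08%, 1.77 to 5.30%), with 2 each in OR10A2 and OR6N1. Per length the olfactory list had 4.63 list 1 only distal peaks per Mb, against 2.32 per Mb over all genes, so its share per gene was lower and its density higher than those of all genes. That density rests on 14 peaks in 3.02 Mb of gene, and the chromosomes of the genes were not taken into account. OR10A2 lies on chromosome 11 and OR6N1 on chromosome 1, which had 5.44 and 3.84 list 1 only distal peaks per Mb.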

How the data were processed

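Per the file headers, the authors called peaks with MACS 1.4.2, separately for IP 1 and IP 2 against the input of the same number, at a p cutoff of 1e-05, with at most 1 tag per position and local background windows of 1000 and 10000 bp. The submitters' processing notes also name Bowtie2, deepTools and HOMER, without their roles, and GRCh38. The authors deposited, per peak, the count of IP tags, a fold enrichment (a ratio to expected background), a score (minus 10 times log10 of the Poisson p) and an FDR in percent. The deposited tag count is not scaled to library size, and a permissive p cutoff lets many weak peaks into each list.

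Overlaps, distances, windows and shares were computed with pandas 2.3.3, statsmodels 0.14.6, scipy 1.17.1 and numpy 2.4.6 under Python 3.11.15, and plotted with matplotlib 3.10.9. The scripts were checked on simulated data. Gene positions and types came from RefSeq's table of GRCh38.p14, the build of the files, and 300-base promoter windows from RefSeq. Windows of 5 Mb start at the first base of each chromosome, and a peak belongs to the window of its centre. Shares carry 95% Wilson intervals, which reflect counting error alone, since neighbouring peaks are not independent. No test was run: the peaks were selected on the same 2 lists, and peaks are not replicates.

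The peaks, windows and gene lists were chosen with earlier results of these data known. Named peaks are the 10 of highest fold, the 5 with most tags, the 5 of lowest FDR, the 3 widest, the strongest in each of the 10 fullest windows, and those nearest each limit. Named windows are the 10 fullest and those of chromosome 11 among the 30 fullest. Named genes are the 10 with most peaks, the 10 densest of at least 200 kb with at least 3 peaks, up to 4 per list and up to 5 non-coding genes. A few genes that this rule names are not reported here. A few windows poor in peaks were added. The planned search for the E-box around summits needs genome sequence, which was not used here, and the promoter windows were used in its place after the data were seen. Alternatives changed the overlap rule, the threshold, the distance, the genes, the peak position, chromosome 5, the windows and the use of list 2.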

Additional observations from a re-analysis of the deposited data

How the results depend on the processing

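For 9 results there were 89 alternative values, of which 55 stayed and 34 moved. Staying meant lying within the counting interval of the reported value, or within 1.5 times for a count. Whether an alternative reversed a result was not scored. With a list 2 peak within 500 bp counted as overlapping, the share with a list 2 peak within 10 kb was 21.3%. It was 23.6% where an overlap had to cover at least 50% of the peak, and 21.4% over 5 kb from gene ends. At a fold of at least 8 there were 753 list 1 only distal peaks (median 8.79-fold), 37.3% inside genes, 6.51% on chromosome 11, 8.76% in the 10 fullest windows, 33.9% at an FDR of 100%, 3.32% near non-coding gene ends and the E-box in 14.3% of promoter windows (1 of 7). At a p of at most 1e-10 there were 685 (median 7.69-fold), 13.1% on chromosome 11, 14.6% in the 10 fullest windows, 0% at an FDR of 100%, 25.3% with a list 2 peak within 10 kb and the E-box in 18.5% (5 of 27). The chromosome 11 share thus went down with a stricter fold and up with a stricter p. Away from the ends of all annotated genes, 0% were near non-coding ends. With chromosome 5 from 10 to 50 Mb kept in, 39.5% were inside genes, 8.50% on chromosome 11, 18.5% in the 10 fullest windows and 75.7% at an FDR of 100%, with a median of 5.71-fold. Without replicate 2, so with all distal list 1 peaks, the values were 8.61% on chromosome 11, 7.99% in the 10 fullest windows, 6.03-fold, 70.2% at an FDR of 100%, 47.3% with a list 2 peak within 10 kb, 5.80% near non-coding ends and the E-box in 17.9% (99 of 553). The 25 fullest windows of 2 Mb held 11.5%. Without the 2 fullest windows, a choice made after the data were seen, as were all E-box alternatives, the 10 fullest held 7.69% and chromosome 11 6.26%. The causes were not tested, apart from alternatives that fix a value by construction.

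No paired analysis was possible because the lists hold no input tags per peak, and IP 1 and IP 2 each entered 1 list, called with the same-numbered input. The planned E-box alternatives around summits were not run. Whether a list 2 signal stood just below the caller's cutoff at these peaks was not tested, since the lists hold called peaks alone, and a single value per peak leaves variation between cultures unmeasured.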
